A study of Mus musculus with 4 samples.

Results

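The killer lectin-like receptor family was taken as every gene whose symbol starts with Klra, Klrb, Klrc, Klrd, Klre, Klrg, Klri or Klrk, which gave 26 of the 31053 genes counted. They were followed in leukocytes sorted for CD45 from B16 melanomas, a mouse skin tumour line, grown in the flank of male C57BL/6 mice. The groups were wild-type mice (WT) and mice labelled as an ATPIF1 knock-out (KO), with n given as 6, and tumours were taken on day 12. Atpif1 encodes an inhibitor of the mitochondrial ATP synthase. The tumours of each genotype were mixed into 1 suspension, so that each genotype has 1 library of RNA 5′ ends and 1 library of T cell receptor (TCR) sequences. With 1 library per genotype no test between genotypes is possible. Intervals are exact 95% intervals that cover counting error only, with each UMI taken as independent. They cover neither the spread between mice nor that between cells, and are too narrow where few cells hold many of the UMIs.

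These receptors are type II membrane proteins with a C-type lectin-like domain, most of them encoded together in the natural killer gene complex. Inhibitory members carry tyrosine motifs that recruit phosphatases, and activating members pair with the adaptors Tyrobp (DAP12) or Hcst (DAP10). Natural killer (NK) cells use them to read MHC class I, MHC-like stress ligands, Clr lectins and cadherins on other cells, and subsets of T cells and myeloid cells carry some of them too.

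Of the 26 genes, 21 had at least 20 UMIs (unique molecular identifiers, each 1 counted transcript) over both libraries. Klrc3 (4 and 1 UMIs in WT and KO), Klra5 (4 and 8) and Klra8 (9 and 6) had fewer, and Klrb1 and Klra10 had 0 in both. Each of the 26 symbols matched 1 RefSeq gene on mouse chromosome 6 (GRCm38.p6, the reference release of the mm10 build named by the submitters' processing notes). Klrd1 (ENSMUSG00000030165; chr6:129588092-129598775), Klrk1 (ENSMUSG00000030149; chr6:129610323-129623903), Klrc1 (chr6:129666015-129682852) and Klrb1b (chr6:128813706-128826315) lie in the natural killer gene complex. The Klra genes lie there too, from Klra17 (chr6:129831154-129876672) to Klra2 (chr6:131198970-131247716), and Klrg1 (chr6:122270596-122282833) and Klrg2 (chr6:38616329-38638815) lie apart. Some paralogues of the Klra and Klrc groups are close in sequence, so that reads they share can be discarded or moved between them, and their single counts are uncertain. How close the transcripts of each pair are was not measured.

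5 promoter windows from RefSeq (250 bases before to 50 bases after the start site, 5′ to 3′) are shown because the cells with the leading levels differed between their genes: Klrk1 and Klrc1 in lymphocytes, Klrk1 also in dendritic cells, Klra7 in lymphocytes, Klra17 in plasmacytoid dendritic cells and Klra2 in monocytes and neutrophils. Capitals mark a RUNX-type motif, TGTGGT on either strand.
Klrk1 (chr6:129623815-129624114, minus strand): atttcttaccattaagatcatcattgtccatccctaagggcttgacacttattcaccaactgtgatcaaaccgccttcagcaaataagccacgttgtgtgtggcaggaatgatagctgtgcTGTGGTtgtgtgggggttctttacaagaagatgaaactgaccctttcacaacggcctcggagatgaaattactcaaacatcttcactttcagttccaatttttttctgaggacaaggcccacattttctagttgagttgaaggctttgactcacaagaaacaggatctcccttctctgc
Klrc1 (chr6:129678924-129679223, minus strand): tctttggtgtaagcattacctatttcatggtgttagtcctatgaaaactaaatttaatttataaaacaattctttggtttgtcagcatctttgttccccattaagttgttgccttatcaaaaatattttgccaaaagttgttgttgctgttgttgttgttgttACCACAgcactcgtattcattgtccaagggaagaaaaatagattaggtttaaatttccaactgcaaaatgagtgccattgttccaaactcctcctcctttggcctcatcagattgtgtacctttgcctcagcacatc
Klra7 (chr6:130233273-130233572, minus strand): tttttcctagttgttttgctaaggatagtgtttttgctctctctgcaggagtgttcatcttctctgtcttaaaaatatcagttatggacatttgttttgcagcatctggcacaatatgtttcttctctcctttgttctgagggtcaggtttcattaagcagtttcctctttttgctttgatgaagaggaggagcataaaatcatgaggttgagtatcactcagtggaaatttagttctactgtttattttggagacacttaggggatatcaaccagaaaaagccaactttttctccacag
Klra17 (chr6:129876623-129876922, minus strand): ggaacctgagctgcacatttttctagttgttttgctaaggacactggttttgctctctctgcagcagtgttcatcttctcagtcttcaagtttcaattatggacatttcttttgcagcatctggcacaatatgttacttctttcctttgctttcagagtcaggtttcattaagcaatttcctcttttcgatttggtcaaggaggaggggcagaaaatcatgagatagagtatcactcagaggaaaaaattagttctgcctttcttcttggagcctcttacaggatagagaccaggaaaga
Klra2 (chr6:131247313-131247612, minus strand): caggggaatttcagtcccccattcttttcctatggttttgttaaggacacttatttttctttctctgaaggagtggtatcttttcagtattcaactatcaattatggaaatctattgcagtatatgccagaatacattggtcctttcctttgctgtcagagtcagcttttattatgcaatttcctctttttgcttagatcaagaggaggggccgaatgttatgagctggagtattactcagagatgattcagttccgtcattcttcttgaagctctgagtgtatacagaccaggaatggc
Windows were found for 23 of the 26 genes. TGTGGT or its reverse complement stood in 8 of these 23, against 16.7% of 32544 windows of the same length, and among the 11 Klra windows only in that of Klra1. The PU.1-type motif AGGAAG stood in 6 of 23 (35.1% of all windows) and the T-box type motif TCACAC in 3 of 23 (14.3%), both searched on both strands. None of the printed windows holds either of the latter motifs. A match is a description of letters and not a binding site. The window of Klra17 was 74.6% identical to that of Klra2 and 74% to that of Klra7 in a global alignment. The cell type with the highest level differed between these genes. Klra17 and Klra2 were nevertheless both counted in neutrophils and in monocytes or macrophages.

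Levels are in CPM, the UMIs of a gene scaled to the same total in every class. The RNA libraries held 35152477 (WT) and 24385843 (KO) UMIs. At least 1000 UMIs, 500 genes and at most 10% mitochondrial UMIs left 4370 and 3211 cells, and 29 of their barcodes occurred in both libraries. Atpif1 itself stood no lower in KO than in WT (576 CPM in WT and 679 in KO over all cells). In CD8 T cells it was at 107 and 263 CPM. Which part of the gene was deleted is not given in the sources used here, so its 5′ tags may not report the deletion, and KO below stands for the library labelled KO. Cells were put into 14 classes by marker genes that include no receptor of the family. Cells that passed the markers of several lineages (170 and 133) or of none (386 and 245) were left out, and they held 16.01% and 13.4% of the family's UMIs. In droplets without a cell, Klrd1 made up 68.1 CPM in WT and 109 in KO. B cells, which should lack these receptors, gave a measure of background: 1.37% of 292 WT B cells (median 1678 UMIs) and 2.63% of 38 KO B cells (median 1548 UMIs) had any family UMI.

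Klrd1, Klrk1, Klra2 and Klrb1b held 80.3% of the family's UMIs, and these 4 were not confined to lymphocytes. The share of cells with any family UMI was 82.6% in WT and 56% in KO NK cells, 51.8% and 48.6% in CD8 T cells, 88.1% and 90.9% in type 2 conventional dendritic cells (cDC2) and 23.1% and 30.99% in monocytes or macrophages. Median depths differed between classes (2137 UMIs in WT NK cells and 7790.5 in WT cDC2). With each cell thinned to 1000 UMIs, no cell being shallower, the shares in the same order were 73.9% and 56%, 25.5% and 25.7%, 45.8% and 46.03%, and 6.11% and 8.09%, against 0.342% of WT B cells. The thinned share was highest in NK cells, with intervals of 51.6% to 89.8% (23 WT cells) and 34.9% to 75.6% (25 KO cells). It was followed by that of cDC2, with 39.6% to 52.04% and 39.8% to 52.4%. The NK and cDC2 intervals overlapped in each library, so that their order is not settled. The cDC2 intervals also overlapped those of gamma-delta T cells (18.1% to 48.1% in WT and 18.6% to 55.9% in KO). The same held for plasmacytoid dendritic cells (23.2% to 44.7% and 4.66% to 50.8%). The other members differed in the classes that held them, as the map of levels by class shows. Where a pair of values is given below without labels, the first is WT and the second KO.

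**Figure D1:**
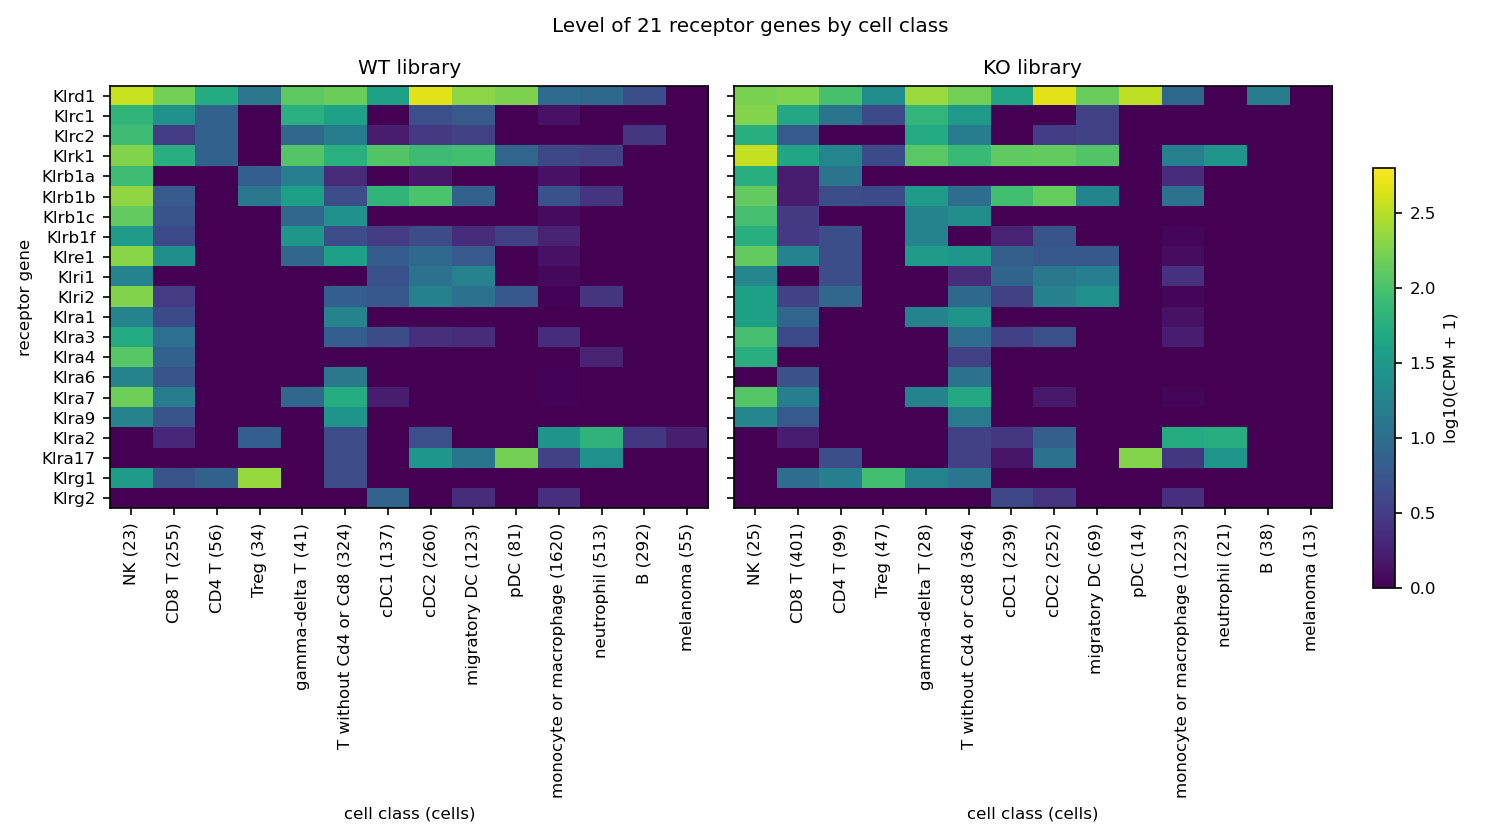
Level of the 21 receptor genes with at least 20 UMIs (rows) in 14 marker-defined cell classes (columns, number of cells in brackets) in the WT and KO libraries, as log10 of CPM plus 1. Klrd1 is bright in NK cells and cDC2, Klra2 in monocytes or macrophages and neutrophils, Klra17 in plasmacytoid dendritic cells and Klrg1 in regulatory T cells.

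Klrd1 encodes CD94, the chain shared by the CD94-NKG2 receptors for the MHC class Ib molecule Qa-1. It was highest in cDC2, at 473 CPM (444 to 503; 992 UMIs) in WT and 474 CPM (443 to 507; 864 UMIs) in KO. NK cells had 369 CPM (231 to 558; 22 UMIs) in WT and 169 CPM (77.4 to 321; 9 UMIs) in KO, so that the WT interval overlapped that of cDC2. CD8 T cells stood at 164 and 179 CPM (154 and 275 UMIs) in WT and KO, T cells without Cd4 or Cd8 at 149 and 161 CPM (125 and 125 UMIs) and migratory dendritic cells at 207 and 143 CPM (165 and 58 UMIs). Below them were cDC1, the cross-presenting dendritic cells, at 38.9 and 42.2 CPM (57 and 97 UMIs) and monocytes or macrophages at 8.55 and 7.68 CPM (116 and 62 UMIs). WT B cells had 3.67 CPM (0.444 to 13.3; 2 UMIs). Neighbours in this order whose intervals overlap, such as CD8 T cells and T cells without Cd4 or Cd8, are not separated by their counting intervals. pDC, the plasmacytoid type, had 177 and 337 CPM (74 and 23 UMIs) and gamma-delta T cells 126 and 238 CPM (17 and 14 UMIs), while CD4 T cells had 51.96 and 95.4 CPM (8 and 26 UMIs) and regulatory T cells 11.9 and 22.8 CPM (2 and 7 UMIs). These 3 classes are less sure than their names. By clustering without TCR genes, 71 of the 155 CD4 T cells fell in CD8 T cell clusters and 68 in CD4 T cell clusters. Of the 69 gamma-delta T cells, 25 fell in CD8 T cell clusters and 37 in gamma-delta T cell clusters. Of the 81 regulatory T cells, 28 fell in CD8 T cell clusters and 50 in regulatory T cell clusters.

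In cDC2 the Klrd1 transcripts were spread over many cells. Of 260 WT cells, 196 had a UMI (75.4%; 31.2% after thinning), and of 252 KO cells 182 (72.2%; 30.2%). At least 2 UMIs were found in 162 and 152 cells, and the cell with most UMIs held 2.42% and 4.17% of them. The summed NK marker list (13 genes, none of this family) stood at 13.8 and 13.2 CPM in cDC2, against 5162 and 4421 in NK cells, and the NK genes Ncr1 and Prf1 were at 0 in cDC2 of both libraries. In cDC2 with a Klrd1 UMI that list was at 15.6 and 11.4 CPM, and in cDC2 without one at 7.01 and 18.97. The cDC2 markers were at 2633 and 2930.5 CPM in the first and 2708 and 3106 in the second. The median depth was higher with a Klrd1 UMI (8378 and 7078.5 UMIs) than without (5833.5 and 4964.5), and the part of depth was not tested.

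The partner chains were not found at the same rate. Klrc1 encodes NKG2A, the inhibitory partner of CD94, and Klrc2 and Klrc3 encode activating ones. In cDC2 the Klrc genes had 12 (WT) and 4 (KO) UMIs beside 992 and 864 of Klrd1, a share of Klrc in the sum of both of 1.2% (0.619 to 2.08) and 0.461% (0.126 to 1.18). In CD8 T cells this share was 14.4% (9.66 to 20.4) and 22.8% (18.5 to 27.5), in NK cells 31.2% (16.1 to 50.01) and 60.9% (38.5 to 80.3). The cDC2 intervals lie below those of CD8 T and NK cells in each library. Plasmacytoid dendritic cells (pDC), known for interferon production, had 0 Klrc UMIs beside 74 and 23 of Klrd1, which by the interval allows a share of up to 4.86% and 14.8%. Klrc1 itself was at 67.05 and 188 CPM (4 and 10 UMIs) in NK cells, 25.6 and 47.5 CPM (24 and 73 UMIs) in CD8 T cells and 39.3 and 30.9 CPM (33 and 24 UMIs) in T cells without Cd4 or Cd8. Klrc2 was at 83.8 and 56.4 CPM (5 and 3 UMIs) in NK cells and 14.3 and 14.1 CPM (12 and 11 UMIs) in T cells without Cd4 or Cd8.

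Klrk1 encodes NKG2D, an activating receptor for stress-induced ligands that can signal through Hcst. NK cells had 184 CPM (92.04 to 329.9; 11 UMIs) in WT and 357 CPM (215 to 558; 19 UMIs) in KO. Among dendritic cells cDC1 had 109.7 CPM (93.4 to 128; 161 UMIs) and 131 CPM (117 to 147; 301 UMIs), cDC2 had 82.4 CPM (70.6 to 95.7; 173 UMIs) and 134 CPM (118 to 152; 245 UMIs). Migratory dendritic cells had 89.1 and 109 CPM (71 and 44 UMIs) and gamma-delta T cells 111 and 119 CPM (15 and 7 UMIs), and in each library these intervals overlapped those of cDC1 and cDC2. CD8 T cells had 57.7 CPM (43.3 to 75.2; 54 UMIs) and 44.3 CPM (34.4 to 56.2; 68 UMIs), below both conventional types in KO and below cDC1 in WT, where the cDC2 interval overlapped. In cDC1 61.3% of WT and 62.8% of KO cells had a Klrk1 UMI, and in CD8 T cells 12.9% and 12.2%; after thinning the shares were 16.1% and 12.6% against 4.71% and 4.24%. Hcst was at 40.2 and 31.8 CPM in cDC1 and at 751 and 733 CPM in CD8 T cells. Tyrobp, the other adaptor of activating members, was at 1019 and 1109 CPM in cDC1 and at 229 and 85.3 CPM in CD8 T cells.

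The NKR-P1 receptors bind Clr lectins. Klrb1b, an inhibitory member that binds the product of Clec2d, was the one with most UMIs and was counted mainly in conventional dendritic cells. cDC2 had 101 CPM (88.3 to 116; 213 UMIs) in WT and 135 CPM (119 to 153; 246 UMIs) in KO, and cDC1 had 67.5 CPM (54.8 to 82.2; 99 UMIs) and 89.2 CPM (77.4 to 102; 205 UMIs). NK cells had 218 and 132 CPM (13 and 7 UMIs), while CD8 T cells had 5.34 and 0.651 CPM (5 and 1 UMIs) and migratory dendritic cells 6.27 and 17.3 CPM (5 and 7 UMIs). Migratory dendritic cells were thus below cDC2 in Klrb1b in each library, while their Klrk1 interval overlapped that of cDC2 in each. Klrb1c, which encodes the NK1.1 antigen, was found in NK cells at 134 and 94.1 CPM (8 and 5 UMIs) and in T cells without Cd4 or Cd8 at 24.99 and 23.1 CPM (21 and 18 UMIs). Klrb1c had 0 UMIs in cDC1 and cDC2. Klrb1a (16 and 18 UMIs over all cells) and Klrb1f (41 and 26) reached at most 12 UMIs in any 1 class and library.

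UMIs of Klrd1, Klrk1 and Klrb1b could be counted in the same cDC2. Of 260 WT and 252 KO cDC2, Klrd1 was found in 196 and 182, Klrk1 in 100 and 122 and Klrb1b in 106 and 116. The overlap that these shares and the depth of the cells would give by themselves was not tested. All 3 had a UMI in 39 WT and 49 KO cells, exactly 2 of them in 98 and 99, and none in 34 and 29. In cDC1 all 3 were found in 13 of 137 and 19 of 239 cells (9.49% and 7.95%, against 15% and 19.4% in cDC2). In monocytes or macrophages all 3 were found in 4 and 2 cells of 1620 and 1223.

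**Figure D2:**
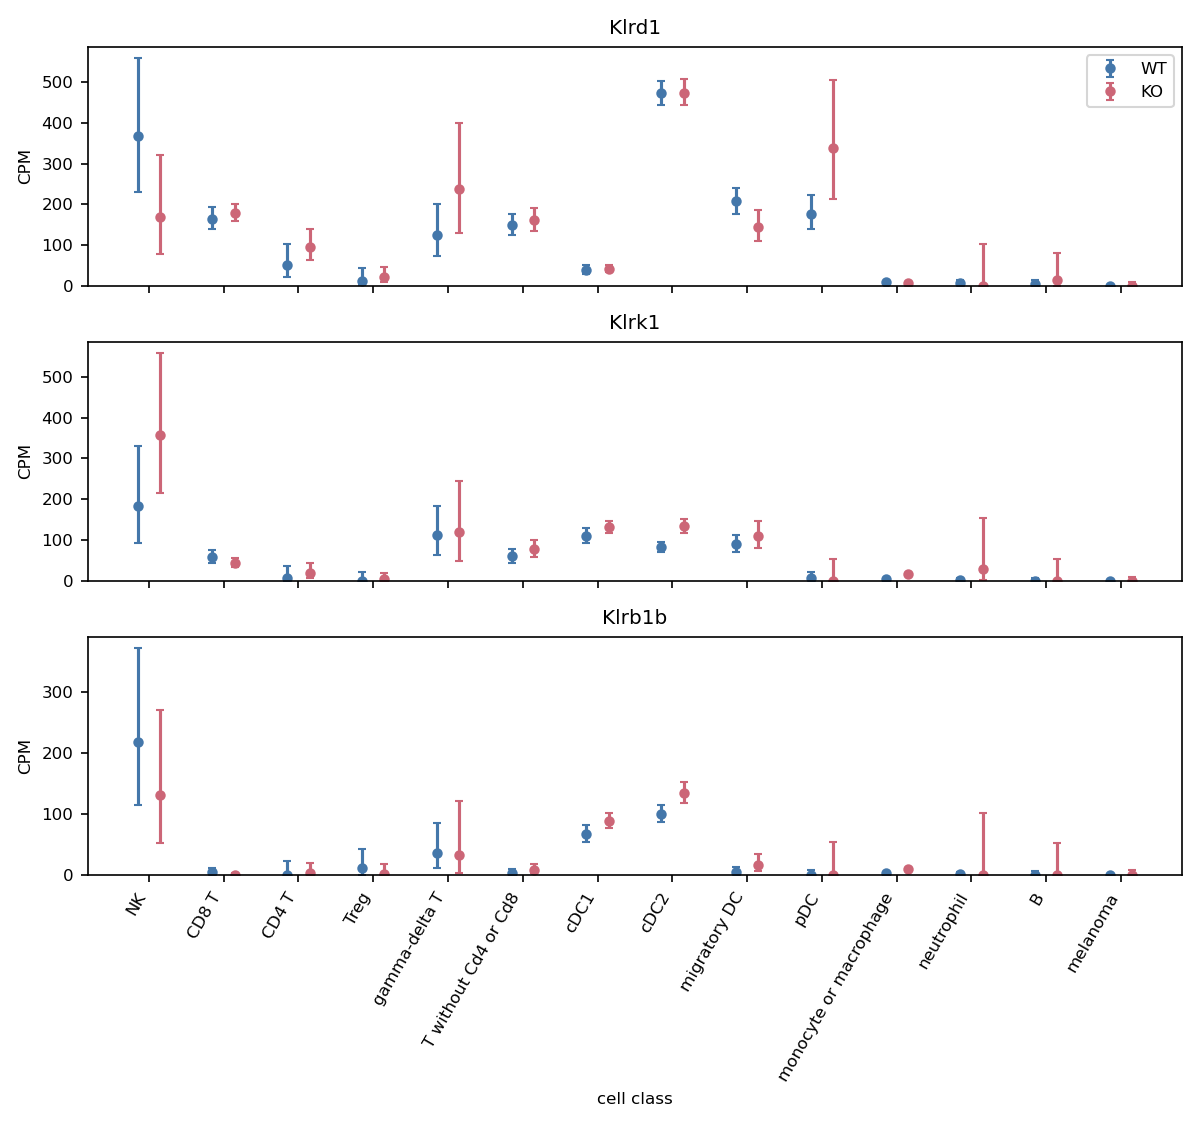
CPM of Klrd1, Klrk1 and Klrb1b (panels) in each cell class for the WT (blue) and KO (red) libraries, with exact 95% Poisson intervals for counting error. Klrd1 stands at 473 (WT) and 474 (KO) CPM in cDC2, and Klrk1 and Klrb1b stand higher in cDC1 and cDC2 than in monocytes or macrophages.

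Klre1 and the Klri genes encode chains that pair with each other, KLRE1-KLRI1 being inhibitory and KLRE1-KLRI2 activating. Klre1 was found in NK cells (201 and 132 CPM, 12 and 7 UMIs), T cells without Cd4 or Cd8 (38.1 and 29.6 CPM, 32 and 23 UMIs) and CD8 T cells (23.5 and 16.3 CPM, 22 and 25 UMIs), and lower in cDC2 (8.1 and 4.94 CPM, 17 and 9 UMIs). Klri1 and Klri2 were found in dendritic cells: Klri1 at 10.5 and 12.1 CPM (22 and 22 UMIs) in cDC2 and 16.3 and 14.8 CPM (13 and 6 UMIs) in migratory dendritic cells, Klri2 at 16.2 and 15.4 CPM (34 and 28 UMIs) and 10.04 and 24.7 CPM (8 and 10 UMIs). In NK cells Klri2 had 184 and 37.6 CPM (11 and 2 UMIs). Klri1 had 0 UMIs in CD8 T cells of either library.

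The Ly49 receptors are encoded by the Klra genes, and many of them bind classical MHC class I. Klra1, Klra3, Klra6, Klra7 and Klra9 are inhibitory and Klra4 and Klra8 activating. In NK cells the counts were low: Klra7 had 151 and 113 CPM (9 and 6 UMIs), Klra4 117 and 56.4 CPM (7 and 3 UMIs) and Klra3 50.3 and 94.1 CPM (3 and 5 UMIs). T cells without Cd4 or Cd8 held more UMIs of Klra7 (53.5 and 47.6 CPM, 45 and 37 UMIs), Klra9 (27.4 and 12.9 CPM, 23 and 10 UMIs) and Klra1 (16.7 and 26.99 CPM, 14 and 21 UMIs), in a class of 324 and 364 cells. CD8 T cells had Klra7 at 13.9 and 14.98 CPM (13 and 23 UMIs). Klra6 had 11.9 and 10.3 CPM (10 and 8 UMIs) in T cells without Cd4 or Cd8. The 6 WT UMIs of Klra4 in CD8 T cells all came from 1 cell. pDC, monocytes or macrophages and B cells had at most 3 UMIs of Klra1, Klra7 or Klra9 in any 1 library.

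Klra17 and Klra2 were counted in myeloid cells. Klra17 encodes Ly49Q, an inhibitory receptor known from pDC, and pDC had the highest level in each library, at 163 CPM (127 to 207; 68 UMIs) in WT and 191 CPM (102 to 326; 13 UMIs) in KO. Of 81 WT pDC 49.4% and of 14 KO pDC 50% had a UMI. Next came cDC2 at 28.6 and 10.4 CPM (60 and 19 UMIs) and neutrophils at 24.2 and 27.5 CPM (28 and 1 UMIs). Klra2 encodes Ly49B, an inhibitory receptor of myeloid cells. WT neutrophils had 65.8 CPM (51.8 to 82.3; 76 UMIs) and the 21 KO neutrophils 55.1 CPM (6.67 to 199; 2 UMIs), and monocytes or macrophages had 27.3 CPM (24.6 to 30.2; 370 UMIs) and 52.2 CPM (47.3 to 57.4; 421 UMIs). Klra2 had 0 and 0 UMIs in NK cells and 0 and 0 in pDC.

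Within monocytes or macrophages Klra2 followed the monocyte gene Ly6c2 and ran against the C1q complement genes of macrophages. Cells with under 500 CPM of C1qa, C1qb and C1qc and an Ly6c2 UMI had 89.1 CPM (127 UMIs in 231 cells) in WT and 105 CPM (101 UMIs in 171 cells) in KO. Cells with more C1q and no Ly6c2 UMI had 15.2 CPM (124 UMIs in 858 cells) and 33.8 CPM (140 UMIs in 585 cells). The log2 ratio of the first to the second was 2.55 (2.18 to 2.92) in WT and 1.63 (1.25 to 2.01) in KO. The other cells lay between, and these cell groups were drawn after the data had been seen.

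Klrg1 encodes an inhibitory cadherin receptor of effector T and NK cells. It was highest in regulatory T cells, at 231 CPM (164 to 316; 39 UMIs) in WT (34 cells) and 87.8 CPM (57.9 to 128; 27 UMIs) in KO (47 cells), where 32.4% and 21.3% of cells had a UMI. CD8 T cells had 4.27 and 9.12 CPM (4 and 14 UMIs). Cdh1, the E-cadherin ligand of KLRG1, was at 96.2 and 77.95 CPM in cDC2. Klrg2, a relative whose role is less clear, was found in monocytes or macrophages at 1.47 and 1.36 CPM (20 and 11 UMIs) and in cDC1 at 6.82 and 3.05 CPM (10 and 7 UMIs).

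The libraries were then compared gene by gene within each class, for members with at least 20 UMIs there over both libraries. With 1 library each, a 1.5-fold difference is a rule of size and not a test, and the counts of members stand beside those over all genes of the class. In NK cells, 23 in WT and 25 in KO, 3 members were measured, 1 at least 1.5-fold higher and 2 lower, while 12.3% of the 652 genes with at least 20 UMIs in the class were at least 1.5-fold higher and 15.5% lower. Klrk1 had a log2 ratio of KO over WT of 0.96 (-0.19 to 2.17), Klrd1 of -1.12 (-2.43 to 0.05) and Klrb1b of -0.73 (-2.29 to 0.70), and all 3 intervals include 0. The family summed was at 2062 CPM in WT and 1731 in KO NK cells, a log2 ratio of -0.25 (-0.66 to 0.15). The NK class was led by Gzma, Xcl1 and Nkg7 among others. Its NK marker list stood at 5162 and 4421 CPM, and the T cell list at 251 and 319.8. The list for type 1 innate lymphoid cells, close relatives of NK cells, stood at 184 and 339 CPM. A TCR sequence was found for 2 of these 48 cells. Clustering left no NK cluster, and 38 of the 48 fell in CD8 T cell clusters. The clusters were drawn without the receptor family and without TCR genes. The part of this choice in the missing NK cluster was not tested.

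In CD8 T cells the family as a whole was level. Its sum was 337 CPM in WT and 345 in KO, a log2 ratio of 0.03 (-0.17 to 0.24). By the rule of size 5 members were measured, 1 at least 1.5-fold higher and 0 lower, while 27.5% of the 7343 genes with at least 20 UMIs in the class were at least 1.5-fold higher and 9.14% lower. The median over all genes of the class was 0.25, so that a ratio of 0 is below the typical gene. The higher member was Klrc1, with a log2 ratio of 0.89 (0.21 to 1.62). Klrd1, the partner chain, was at 0.12 (-0.17 to 0.42) and Klrk1 at -0.38 (-0.92 to 0.16). Cells with more UMIs of 5 effector than of 5 naive or memory genes made up 155 of 255 WT and 302 of 401 KO cells, and within them Klrc1 was at 0.61 (-0.11 to 1.37) and Klrk1 at -0.75 (-1.30 to -0.19). Klrk1 and Klrc1 were higher in these effector cells than in the naive or memory ones within each library. The Klrk1 log2 ratio was 3.65 (1.73 to 6.73) in WT and 1.72 (0.29 to 3.64) in KO, that of Klrc1 3.41 (0.78 to 8.78) and 2.24 (0.64 to 4.56). These ratios rest on few UMIs in the 88 and 84 naive or memory cells, 2 and 4 of Klrk1 and 1 and 3 of Klrc1. For Klrd1 the ratios were 0.45 (-0.08 to 1.01) and -0.40 (-0.83 to 0.04), with intervals that include 0.

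Clones were defined by identical productive TCR chains, and a clone was called expanded at 2 or more cells. In WT 3 CD8 T cells were in expanded clones and held 6 Klrk1 UMIs, against 5 in 26 unexpanded cells, a log2 ratio of 3.71 (1.73 to 5.76). In KO 44 expanded cells held 7 and 18 unexpanded cells 4, a ratio of -0.61 (-2.58 to 1.61). With clones defined by the TCR beta chain alone the ratios were 2.53 (0.89 to 3.94, 6 and 71 cells) and -0.43 (-1.51 to 0.70, 86 and 51 cells). The WT value rests on 3 to 6 cells, and the KO intervals include 0.

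T cells without Cd4 or Cd8 UMIs were the class with most UMIs of Klra1, Klra7 and Klra9. By clustering, 479 of its 688 cells fell in CD8 T cell clusters and 130 in CD4 T cell clusters. There 9 members were measured, 1 at least 1.5-fold higher and 1 lower, while 14.3% of the 6092 genes with at least 20 UMIs in the class were at least 1.5-fold higher and 8.77% lower. Klra1 was at 0.70 (-0.35 to 1.78) and Klra9 at -1.09 (-2.33 to 0.04), both with intervals that include 0, and Klra7 at -0.17 (-0.84 to 0.49). In this class 82 of 324 cells in WT and 50 of 364 in KO had a TCR sequence, and the receptors were present in these cells: Klra7 had 101 CPM (25 UMIs in 82 cells) in WT and 43.1 CPM (7 UMIs in 50 cells) in KO. In WT the level was higher with a TCR sequence than without for Klra7 (log2 ratio 1.59, 0.68 to 2.51), Klra9 (1.65, 0.34 to 2.99), Klra1 (2.59, 0.80 to 4.72) and Klre1 (1.45, 0.36 to 2.55). In KO the same ratios were -0.18 (-1.61 to 1.04) for Klra7, 0.70 (-1.88 to 2.83) for Klra9, 0.24 (-1.56 to 1.76) for Klra1 and -0.82 (-3.21 to 0.94) for Klre1, with intervals that include 0. The plot of receptor levels with and without a TCR sequence shows both libraries. In gamma-delta T cells Klrd1 was at 126 and 238 CPM (17 and 14 UMIs) and Klrk1 at 111 and 119 CPM (15 and 7 UMIs). Cells without a TCR and cells whose TCR was missed cannot be told apart here.

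**Figure D3:**
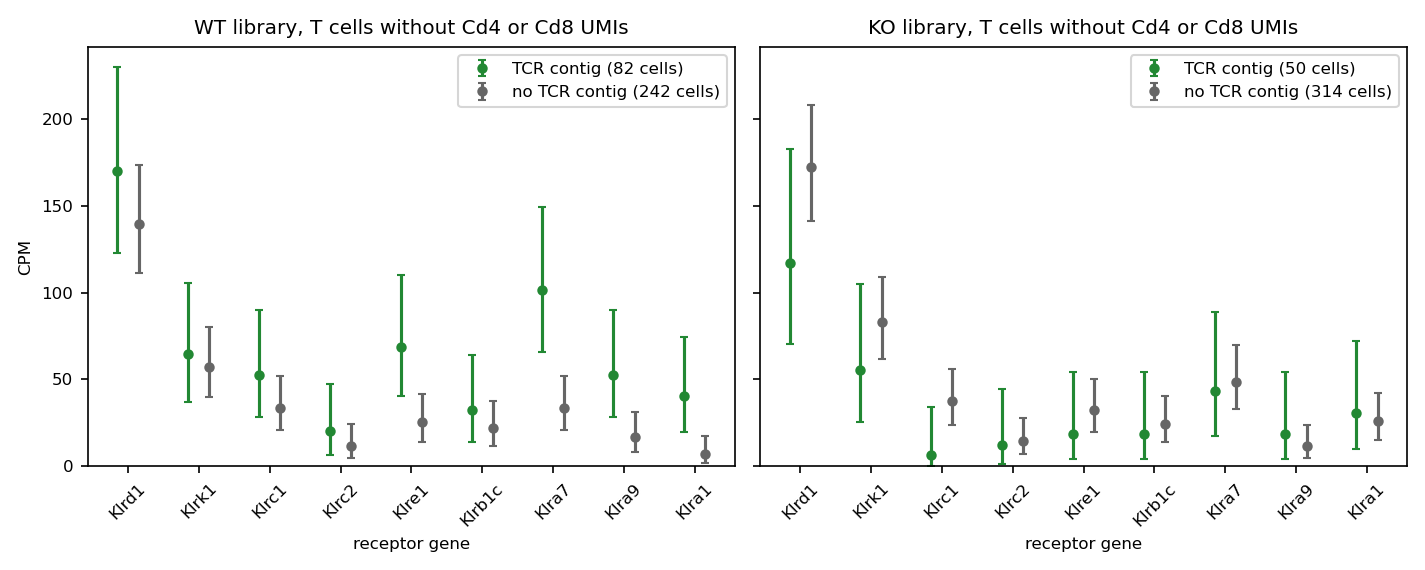
CPM of 9 receptor genes in T cells without Cd4 or Cd8 UMIs, split by whether a TCR sequence was found for the barcode (green) or not (grey), in the WT and KO libraries; bars are exact 95% Poisson intervals. In WT the Klra7, Klra9 and Klra1 points are higher with a TCR sequence, and in KO the intervals overlap.

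In CD4 T cells Klrd1 was at 51.96 CPM in WT (8 UMIs) and 95.4 CPM in the library labelled KO (26 UMIs), a ratio of 0.88 (-0.31 to 2.23). A single KO cell held 9 of the 26 UMIs, and without the top cell of each library the levels were 26.5 and 65.1 CPM. The direction turned with Leiden clusters in place of the classes and with the highest doublet scores removed. In regulatory T cells Klrg1 was lower in the library labelled KO, with a log2 ratio of -1.40 (-2.16 to -0.65). Single cells held 25.6% and 25.9% of its UMIs, and without the top cell the levels were 176 and 68.1 CPM.

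Among the dendritic cells, 4 of 7 measured members were within 1.5-fold in cDC2, 4 of 5 in cDC1 and 2 of 2 in migratory dendritic cells. In cDC2 7 members were measured, 1 at least 1.5-fold higher and 2 lower, while 8.33% of the 8431 genes with at least 20 UMIs in the class were at least 1.5-fold higher and 9.31% lower. Klrd1, the member with most UMIs, had a ratio of 0.01 (-0.13 to 0.14). The Klrk1 ratio was 0.71 (0.42 to 1.00), higher in the library labelled KO, Klrb1b was at 0.41 (0.14 to 0.68) and 0.09 after thinning, and Klra17 was lower, at -1.45 (-2.28 to -0.69). The marker list of cDC1 stood at 274 CPM in WT and 590.1 in KO cDC2, and that of pDC at 46.7 and 32.4. Their part in the Klrk1 and Klra17 values was not tested. After thinning, 3 WT and 6 KO cDC2 had a Klra17 UMI, so that its direction is not settled at this depth. In cDC1 5 members were measured, 1 at least 1.5-fold higher and 0 lower, while 8.43% of the 8221 genes with at least 20 UMIs in the class were at least 1.5-fold higher and 7.48% lower, with Klrk1 at 0.26 (-0.03 to 0.54) and -0.40 after thinning, Klrb1b at 0.40 (0.05 to 0.76) and -0.54 after thinning, and Klri1 at 0.77 (-0.66 to 2.41). In migratory dendritic cells 2 members were measured, 0 at least 1.5-fold higher and 0 lower, while 11.5% of the 5047 genes with at least 20 UMIs in the class were at least 1.5-fold higher and 17.2% lower. Klrd1 was at -0.53 (-0.99 to -0.09) there and at 0.93 (0.18 to 1.62) in pDC. Of the 23 KO UMIs in pDC 1 of 14 cells held 10, and without the top cell of each library the pDC levels were 156 and 211 CPM.

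The largest log2 ratio among the 46 measured pairs of a member and a class was in monocytes or macrophages, at a low level. There 7 members were measured, 3 at least 1.5-fold higher and 1 lower, while 6.19% of the 11134 genes with at least 20 UMIs in the class were at least 1.5-fold higher and 7.37% lower. Klrk1 was at 3.02 CPM in WT (41 UMIs) and 15.5 CPM in the library labelled KO (125 UMIs), a log2 ratio of 2.36 (1.84 to 2.90), Klrb1b at 1.30 (0.79 to 1.82) and Klra2 at 0.94 (0.73 to 1.14). Klrd1 was at -0.15 (-0.62 to 0.30) over the class, but at 2.07 (0.66 to 3.70) in Ly6c2 cells of low C1q (6 and 17 UMIs) and at -1.27 (-2.18 to -0.45) in C1q-high cells without Ly6c2 (71 and 15 UMIs). In the other C1q-low and C1q-high cells it was at 0.39 (-0.62 to 1.34) and -0.13 (-1.38 to 1.19). Klrg2 was at -0.11 (-1.32 to 1.02) and Klra3, on few UMIs, at -1.02 (-2.81 to 0.48). Klrk1 UMIs were found in 33 WT and 92 KO cells (2.04% and 7.52%; 0.494% and 1.39% after thinning). The cDC1 marker list stood at 172 and 416 CPM in the class and the cDC2 list at 216 and 253. In the cells with a Klrk1 UMI the cDC1 list stood at 348 and 894 CPM and the cDC2 list at 455 and 679.7, against 166 and 362 and 208 and 205 in the others. The T cell list stood at 87.05 and 13.4 CPM with a Klrk1 UMI and at 6.48 and 15.7 without, and the NK list at 66.96 and 7.33 against 5.79 and 10.9. The part of dendritic, T and NK cell transcripts in the Klrk1 and Klrb1b values was not tested.

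Free RNA moves with this class as well. Droplets without a cell held Klrk1 at 21.97 CPM in WT and 55.99 in KO, and haemoglobin and melanoma transcripts put the free RNA share of monocytes or macrophages at 5.47% and 16.8%. Klrd1 was at 109 CPM in the empty KO droplets and at 7.68 CPM in KO monocytes or macrophages. A share of 16.8% of that profile would bring more Klrd1 than was counted. The KO share is thus too high for Klrd1, and its error was not measured. The ratio of Klrk1 to Klrd1 was 0.323 in the empty WT droplets and 0.353 in WT monocytes or macrophages, and 0.514 in the empty KO droplets and 2.02 in KO monocytes or macrophages. With the empty-droplet profile subtracted at these shares the Klrk1 ratio was 1.93, and with cells thinned to 1000 UMIs 1.58. The subtracted value carries the error of the KO share. Klra2 was higher in the library labelled KO in each of the 4 cell groups by C1q and Ly6c2, with overlapping intervals in the Ly6c2 cells of low C1q, where the levels were 89.1 and 105 CPM. After thinning the Klra2 log2 ratio was 0.43. Klrk1 was higher in KO in all 4 groups, as the plot of monocyte and macrophage groups shows.

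**Figure D4:**
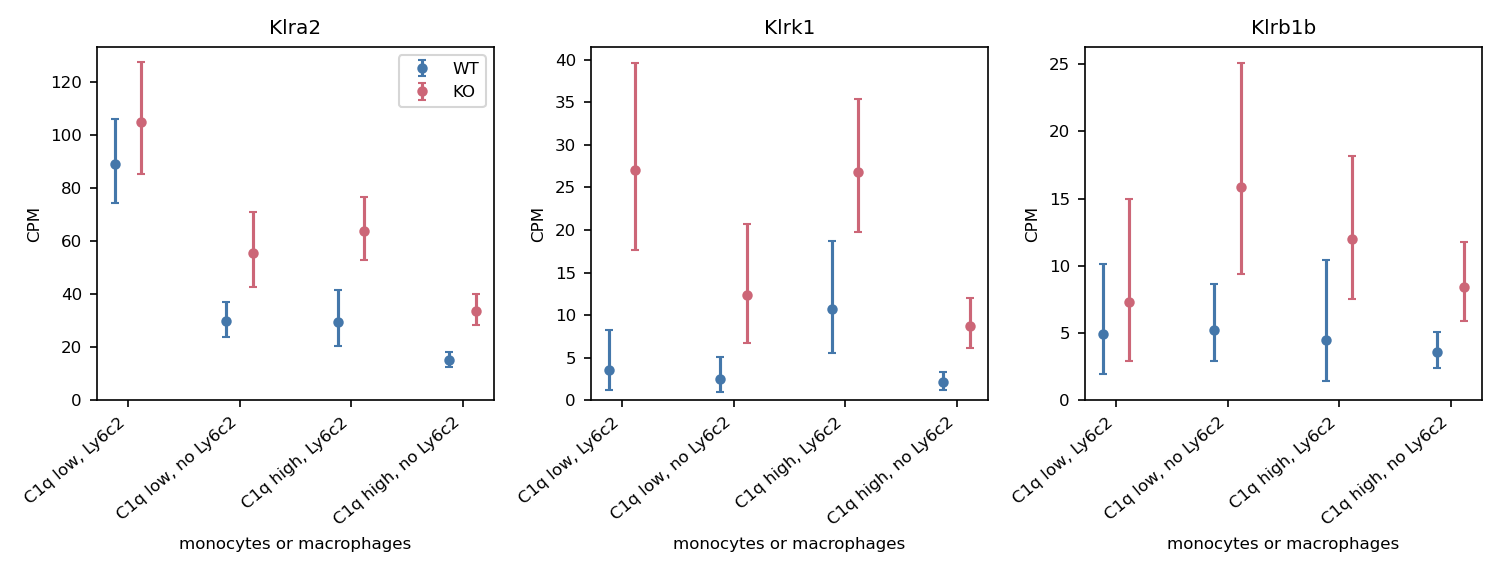
CPM of Klra2, Klrk1 and Klrb1b in monocytes or macrophages split by C1q level (under or at least 500 CPM) and by an Ly6c2 UMI, in the WT (blue) and KO (red) libraries, with exact 95% Poisson intervals. Klra2 stands at 89.1 (WT) and 105 (KO) CPM in Ly6c2 cells of low C1q and at 15.2 and 33.8 in C1q-high cells without Ly6c2.

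**Figure D5:**
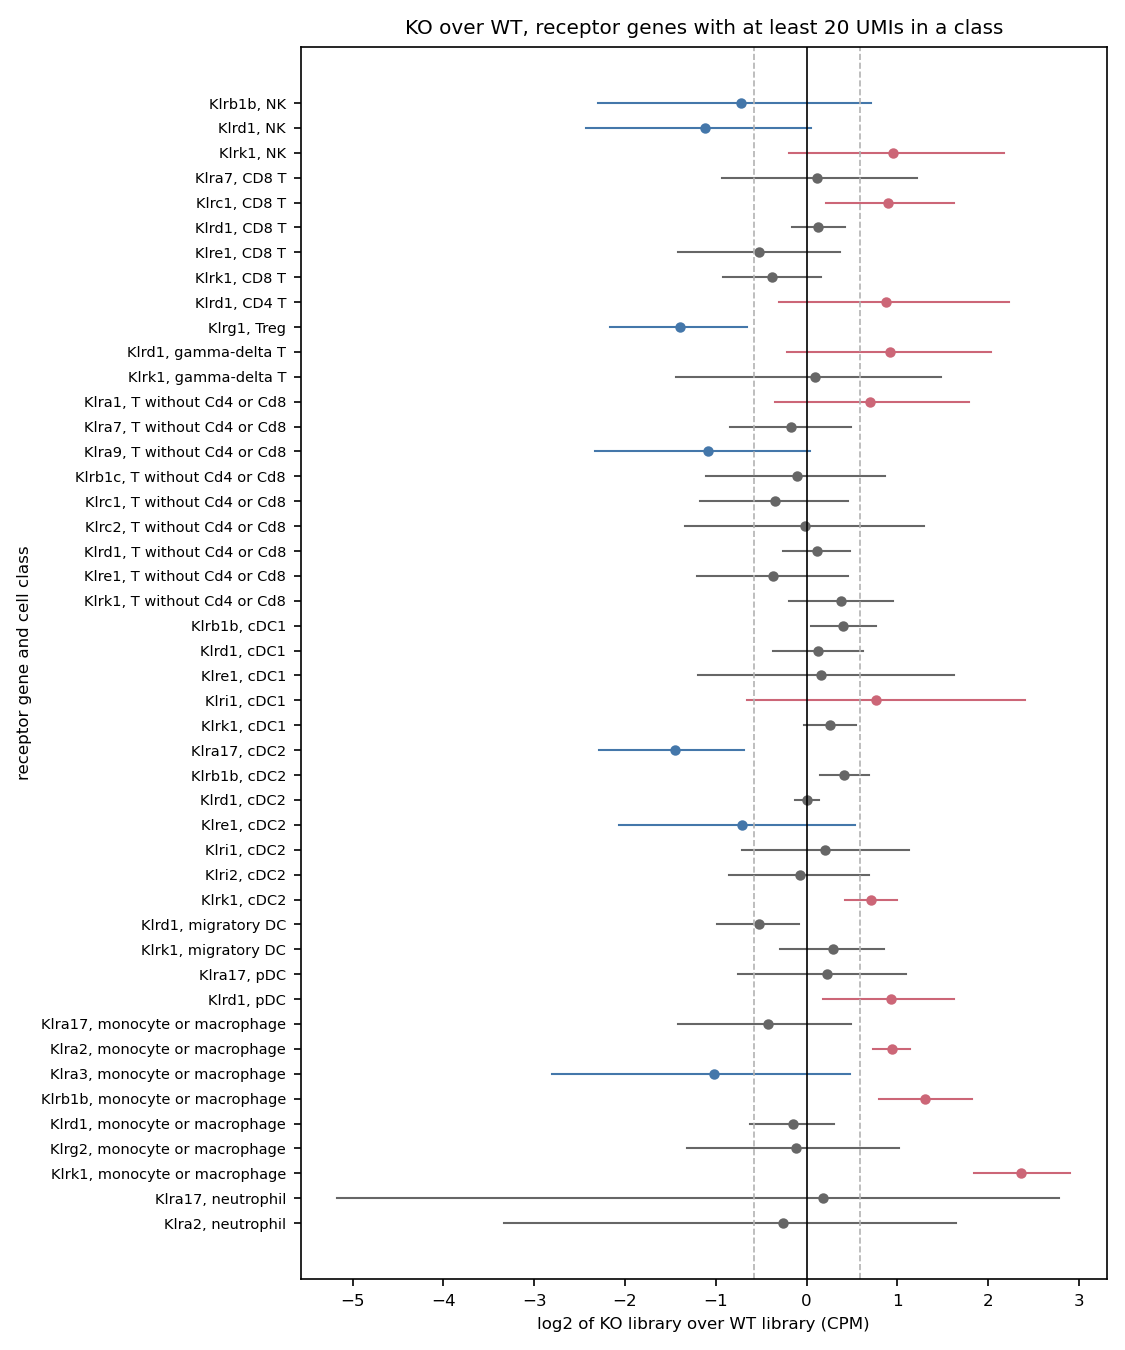
Log2 ratio of KO over WT for the 46 pairs of a receptor gene and a class with at least 20 UMIs, with exact 95% intervals for counting error; red points are at least 1.5-fold higher in KO, blue at least 1.5-fold lower, grey neither, and dashed lines mark 1.5-fold. Klrk1 in monocytes or macrophages is the point farthest to the right, and Klrd1 in cDC2 lies at 0.01 with the shortest interval.

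The ligands of these receptors were listed by role. Of the MHC class I ligands 4 of 5 were measured, with 3 higher and 0 lower by 1.5-fold and a median log2 ratio of 0.62 in cDC2, where the shares over all genes were 8.33% higher and 9.31% lower. In monocytes or macrophages 4 of 5 were measured, with 3 higher and 0 lower by 1.5-fold and a median log2 ratio of 0.73, against 6.19% higher and 7.37% lower over all genes. In CD8 T cells 4 of 5 were measured, with 1 higher and 0 lower by 1.5-fold and a median log2 ratio of 0.24, against 27.5% higher and 9.14% lower over all genes. H2-T23, which encodes Qa-1, the ligand of the CD94-NKG2 receptors, had a ratio of 0.73 (0.45 to 1.02) in CD8 T cells, 0.72 (0.55 to 0.89) in cDC2 and 1.28 (1.19 to 1.38) in monocytes or macrophages. H2-K1, a ligand of Ly49 receptors, had 0.62 (0.54 to 0.70) in cDC2 and 0.71 (0.67 to 0.74) in monocytes or macrophages. B2m, the light chain of MHC class I, had 0.61 (0.54 to 0.69) and 0.75 (0.72 to 0.77). The medians over all genes were -0.01 and -0.01 in those classes. NKG2D ligands were scarce: in monocytes or macrophages 3 of 8 were measured, with 0 higher and 1 lower by 1.5-fold and a median log2 ratio of -0.54, the lower one being Raet1d at 9.58 and 6.32 CPM (-0.60, -1.10 to -0.12). Clec2d, the ligand of Klrb1b, was at 37.6 and 76.9 CPM in cDC2 (1.03, 0.62 to 1.45), in which of the Clr genes 2 of 6 were measured, with 1 higher and 0 lower by 1.5-fold and a median log2 ratio of 0.59.

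Among the 14 genes for adaptors and signalling, 12 of 14 were measured, with 1 higher and 3 lower by 1.5-fold and a median log2 ratio of -0.01 in CD8 T cells, against 27.5% higher and 9.14% lower and a median of 0.25 over all genes of that class. Tyrobp (-1.42, -1.75 to -1.10), Fcer1g (-1.45, -1.78 to -1.11) and the kinase gene Syk (-0.94, -2.18 to 0.28) were the lower ones, and the phosphatase gene Ptpn11 (1.23, 0.53 to 2.00) the higher one. The values differed in direction between T cell classes. In CD4 T cells Tyrobp was at 1.98 (1.02 to 3.11) and Fcer1g at 1.5 (0.45 to 2.72), in regulatory T cells at 1.57 (0.86 to 2.36) and 0.58 (-0.10 to 1.30), in gamma-delta T cells at -0.66 (-2.00 to 0.50) and -1.94 (-3.05 to -0.99), and in T cells without Cd4 or Cd8 at 0.02 (-0.27 to 0.31) and -0.25 (-0.51 to 0.01). Tyrobp and Fcer1g are also abundant in myeloid cells, at 2972 and 3140.1 CPM for Tyrobp in monocytes or macrophages, and the part of free RNA in these values was not tested. In NK cells 3 of 14 were measured, with 1 higher and 0 lower by 1.5-fold and a median log2 ratio of 0.10, the higher one being Hcst at 0.93 (0.25 to 1.63), against 12.3% higher and 15.5% lower over all genes; of the regulators Id2 was at 0.79 (0.18 to 1.41) and Ets1 at -1.29 (-2.67 to -0.07). In cDC2 11 of 14 were measured, with 0 higher and 1 lower by 1.5-fold and a median log2 ratio of 0.03, the lower one being Sh2d1b1 at -0.71 (-1.47 to 0.02), against 8.33% higher and 9.31% lower over all genes. Havcr2, of the other NK receptors, was at -1.16 (-2.26 to -0.16) in cDC2. Of the regulators of NK receptor genes 11 of 12 were measured, with 2 higher and 1 lower by 1.5-fold and a median log2 ratio of 0.11 in CD8 T cells, against 27.5% higher and 9.14% lower over all genes, with Eomes at 1.84 (1.14 to 2.60), Tox at 2.26 (1.60 to 2.99) and Zeb2 at -0.84 (-1.57 to -0.12). Of other NK receptors 8 of 10 were measured, with 7 higher and 1 lower by 1.5-fold and a median log2 ratio of 0.81 in that class, against the same shares of 27.5% and 9.14% over all genes, among them Tigit at 2.21 (1.56 to 2.92), Cd226 at 1.5 (0.54 to 2.59) and Cd160 at 0.79 (0.02 to 1.63), and Fcgr3 at -1.66 (-2.75 to -0.64). Havcr2 had 2 and 40 UMIs, at 3.61 (1.66 to 6.70), and Cd96, Slamf7 and Crtam were at 0.78, 0.83 and 0.75. In T cells without Cd4 or Cd8 of the other NK receptors 6 of 10 were measured, with 1 higher and 2 lower by 1.5-fold and a median log2 ratio of -0.09, against 14.3% higher and 8.77% lower over all genes. Slamf7 was at 0.70 (-0.72 to 2.19), Fcgr3 at -1.30 (-2.59 to -0.15) and Cd160 at -0.65 (-1.94 to 0.56). Fcgr3 is abundant in myeloid cells too, at 483 and 386 CPM in monocytes or macrophages against 26.7 and 8.47 in CD8 T cells. The part of free RNA in its T cell values was not tested.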

How the data were processed

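RNA of 1 WT and 1 KO library and the matching TCR libraries were used; the authors deposited UMI counts per gene and barcode, made with Cell Ranger 3.1.0 on mm10, per the submitters' processing notes, which also name R 3.6.1 and Seurat 3.2.0 with no role stated. Barcodes with at least 1000 UMIs, 500 genes and at most 10% mitochondrial UMIs were kept (79.4% and 74.6% of UMIs). Cells were put into classes by minimum UMIs and CPM of marker lists without receptor genes; the minimums were set after the data had been seen, and cells passing several lineages were left out, as the treatment of doublets. The members, lists and classes were chosen with earlier results of these data known. Counts were summed per class and library. CPM carry exact Poisson intervals, ratios exact conditional binomial intervals and shares exact Clopper-Pearson intervals, computed with Python 3.11.15 and scipy 1.17.1 and tested on simulated data. All members with at least 20 UMIs are described, and ratios are given from 20 UMIs in a class. In the lists described, genes with at least 20 UMIs in the class are counted and those 1.5-fold apart named; some ligands are named besides. Alternatives were cell filters, gates, thinning to 1000 UMIs, free RNA subtraction, the mean of CPM per cell, Leiden clusters, doublet scores, clone definitions and UMI minimums. The Leiden clusters were drawn without the receptor family and without TCR, immunoglobulin, mitochondrial and ribosomal protein genes. Raet1a, Raet1b, Raet1c, Clec2f, H2-L and Cd244a had no row of that symbol and are not analysed here. Levels are compared within a gene. Exceptions are the Klrc share beside Klrd1, the ratio of Klrk1 to Klrd1 and the share of UMIs held by the leading members. Gene length was not used, and differences in capture between genes were not measured.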

Additional observations from a re-analysis of the deposited data

Results flagged for a closer look

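Klrd1 moved in opposite directions in a pair of dendritic cell types, a difference that was not tested. Its log2 ratio of KO over WT was 0.93 (0.18 to 1.62) in pDC and -0.53 (-0.99 to -0.09) in migratory dendritic cells, with 95% intervals for counting error on opposite sides of 0. The pDC value rests on 23 UMIs in 6 of 14 KO cells, and 1 cell holds 43.5% of them.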

How the results depend on the processing

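Each of 55 results was recomputed under up to 13 settings. Of 486 values, 446 stayed within the counting interval of the reported value (or, for counts of genes, within 1.5 times), 30 moved further, and 10 were ratios at least 1.5-fold as reported that changed sign. Over ratios of any size, 52 of 447 had another sign than reported. NK members at least 1.5-fold apart numbered 3, against 0 with at least 2000 UMIs and 800 genes, 0 with thinned cells, 7 at a minimum of 10 UMIs and 0 at 50. CD8 T cell members apart numbered 1, against 7 with Leiden clusters, 2 with the highest doublet scores removed and 5 at a minimum of 10 UMIs. The summed CD8 T cell log2 ratio was -0.17 with Leiden clusters. Klrd1 in cDC2 was 435 (WT) and 405 (KO) CPM after thinning. The KO clone ratio of Klrk1 turned to 1.68 with Leiden clusters. Thinning, which leaves few UMIs, turned Klrb1b in NK cells to 0.88, Klre1 in cDC2 to 0.045, Klrd1 in gamma-delta T cells to -0.13, Klra17 in cDC2 to 1.05 and Klra3 in monocytes or macrophages to 1.41. Leiden clusters turned Klre1 in cDC2 to 0.14, Klrd1 in CD4 T cells to -0.33 and Klra3 in monocytes or macrophages to 0.055. With the highest doublet scores removed Klrd1 in CD4 T cells was -0.37. The cause was not tested. Leiden clusters gave no NK class, expanded clones of 3 or more cells gave no WT value, and thinning gave no KO clone value. No paired analysis was possible because each genotype has 1 library.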
